A study of Mus musculus with 6 samples.

Results

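Olig1, Olig2, Sox10, Sox6, Nkx2-2, Myrf, Tcf7l2, Gpr17, Enpp6 and Bcas1 are 10 mouse genes that direct or mark the steps by which an oligodendrocyte precursor cell (OPC) becomes a myelinating oligodendrocyte. They were taken by gene symbol from the 32285 genes of 6 single-nucleus RNA-seq libraries, and each symbol matched 1 row of the files. The rule used the symbols and no measured value. Their levels were followed through 3 stages of the lineage and compared between 3 groups of mice.

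OPCs are dividing cells spread through the adult brain, and some of them leave the cell cycle and mature into oligodendrocytes, the cells that wrap axons in myelin. Between the ends of this path lie the short-lived committed precursor and the newly formed (premyelinating) oligodendrocyte. Both are rare in adult cortex, and the decision to differentiate is carried out there. The markers used here do not tell them apart, and the class named committed precursor-like can hold both. In this path Olig1, Olig2, Sox10 and Nkx2-2 are transcription factors that specify or maintain the lineage, Sox6 is a factor of precursors that holds differentiation back, Myrf switches on myelin genes, and Tcf7l2 is an effector of Wnt signalling that acts at the onset of differentiation. Gpr17 is a receptor of the committed stage, Enpp6 is a choline phosphodiesterase used as a mark of newly forming oligodendrocytes, and Bcas1 is a cytoplasmic protein that marks early myelinating cells.

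The libraries came from cortex nuclei of 7.5-month-old mice, from which nuclei carrying NeuN, a neuronal protein, had been sorted away. All 3 groups carried 5xFAD, mutant human APP and presenilin transgenes driven by the neuronal Thy1 promoter that give amyloid plaques. They were 5xFAD-P522R and 5xFAD-M28L, in which 5xFAD is combined with the P522R or the M28L variant of phospholipase C-gamma-2 (PLCG2, an enzyme of microglial signalling), and 5xFAD with neither variant. The labels do not say how many copies of a variant the mice carried, no group without 5xFAD was analysed here, and nuclei of both sexes were mixed in every library. There were 2 libraries per group, with the replicate numbers 2 and 3, and the labels do not say if these come from different animals, so all p-values measure the spread between libraries.

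The regulatory sequence before Enpp6 and before the first start of Tcf7l2 is shown because these genes had the largest increases within the committed stage, given with the ranked nuclei, and because 2 of the 10 genes, Sox10 and Sox6, encode SOX factors, whose core motif can be searched for by its letters. Each line gives the 250 bases before the RefSeq start, 5′ to 3′ on the gene's plus strand, in GRCm38.p6, at chr8:46986637-46986886 for Enpp6 and chr19:55741560-55741809 for Tcf7l2. Capitals mark the SOX core ACAAT or its reverse complement ATTGT.
Enpp6: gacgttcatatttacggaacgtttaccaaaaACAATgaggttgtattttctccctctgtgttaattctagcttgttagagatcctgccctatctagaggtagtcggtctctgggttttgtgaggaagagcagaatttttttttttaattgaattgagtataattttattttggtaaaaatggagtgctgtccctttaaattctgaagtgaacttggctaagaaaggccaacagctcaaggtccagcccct
Tcf7l2: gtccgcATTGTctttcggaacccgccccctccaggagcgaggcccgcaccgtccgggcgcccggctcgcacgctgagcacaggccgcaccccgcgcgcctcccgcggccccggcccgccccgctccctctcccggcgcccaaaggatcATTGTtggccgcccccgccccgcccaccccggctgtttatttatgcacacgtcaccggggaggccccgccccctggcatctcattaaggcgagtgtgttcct
The core lies 219 bases before the start of Enpp6, and 244 and 102 bases before that of Tcf7l2. In the RefSeq table used, 5 of the 10 genes had such windows (Enpp6, Nkx2-2, Olig2, Sox6 and Tcf7l2), 11 in all because Sox6 and Tcf7l2 have several starts. The core was in 7 of these 11 windows, and in 9086 of the 32851 windows of that length in the table (27.7%). The E box CANNTG, a motif of basic helix-loop-helix factors such as Olig1 and Olig2, was in 7 of the 11 windows and in 66.2% of all windows. The core of TCF factors, CTTTGA or TCAAAG, was in 3 of the 11 windows, all of Sox6, and in 13.8% of all windows. A match of letters is a description of the window and not a binding site.

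Each library held 9269 to 13783 barcodes and 53326947 to 72288942 UMIs (unique molecular identifiers, counts of single RNA molecules). After filters and removal of called doublets 60085 nuclei remained, of which 1560 were left unnamed and the others fell into 12 classes named from marker genes that do not include any of the 10 genes. Pairs of libraries shared 20 to 71 barcode sequences, at most 0.751% of the smaller library. In OPC-like nuclei 5xFAD replicate 2 stood apart: of 10744 genes with a mean of at least 5 CPM (UMIs scaled to a total of 1e6), 268 differed by more than 1 on the log2 scale from the mean of the other 5 libraries, against 1 to 68 genes in each of those. In oligodendrocyte-like nuclei the count was 221 of 9833 genes for that library, against 1 to 44 genes for the others. The count of calls without that library is therefore given below for the tests within stages. For the difference between stages, ranges of values over the libraries left out are given.

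The lineage comprised 6144 OPC-like nuclei (747 to 1695 per library), 333 committed precursor-like nuclei (36 to 66 per library) and 32182 oligodendrocyte-like nuclei (4043 to 6615 per library). The OPC-like cluster was led by Megf11, Pdgfra and Lhfpl3, and the committed precursor-like cluster by 9630013A20Rik, Bmp4 and Fyn. All 10 OPC markers and all 12 oligodendrocyte markers were detected in both end stages. Summed over libraries, the committed stage rests on few nuclei, but these are deep, with a median of 9110 UMIs per nucleus against 8143.5 in OPC-like and 3967 in oligodendrocyte-like nuclei. Levels are given as CPM of the UMIs summed per library and stage, as lowest, median and highest of 6 libraries and as mean ± SD (n = 6). Stages are clusters of the same nuclei, so their differences are described and not tested. The protocol counts RNA near transcript ends without correction for gene length, so levels are compared between stages of 1 gene and not between genes.

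Of the 10 genes, 7 had their highest mean level in committed precursor-like nuclei, 2 (Olig1 and Olig2) in OPC-like nuclei and 1 (Myrf) in oligodendrocyte-like nuclei, and each gene had its highest level in that same stage in 6 of 6 libraries. The committed stage was thus not intermediate for most of these genes: Bcas1, Enpp6, Gpr17, Nkx2-2, Sox10, Sox6 and Tcf7l2 stood above both the stage before and the stage after it.

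**Figure D1:**
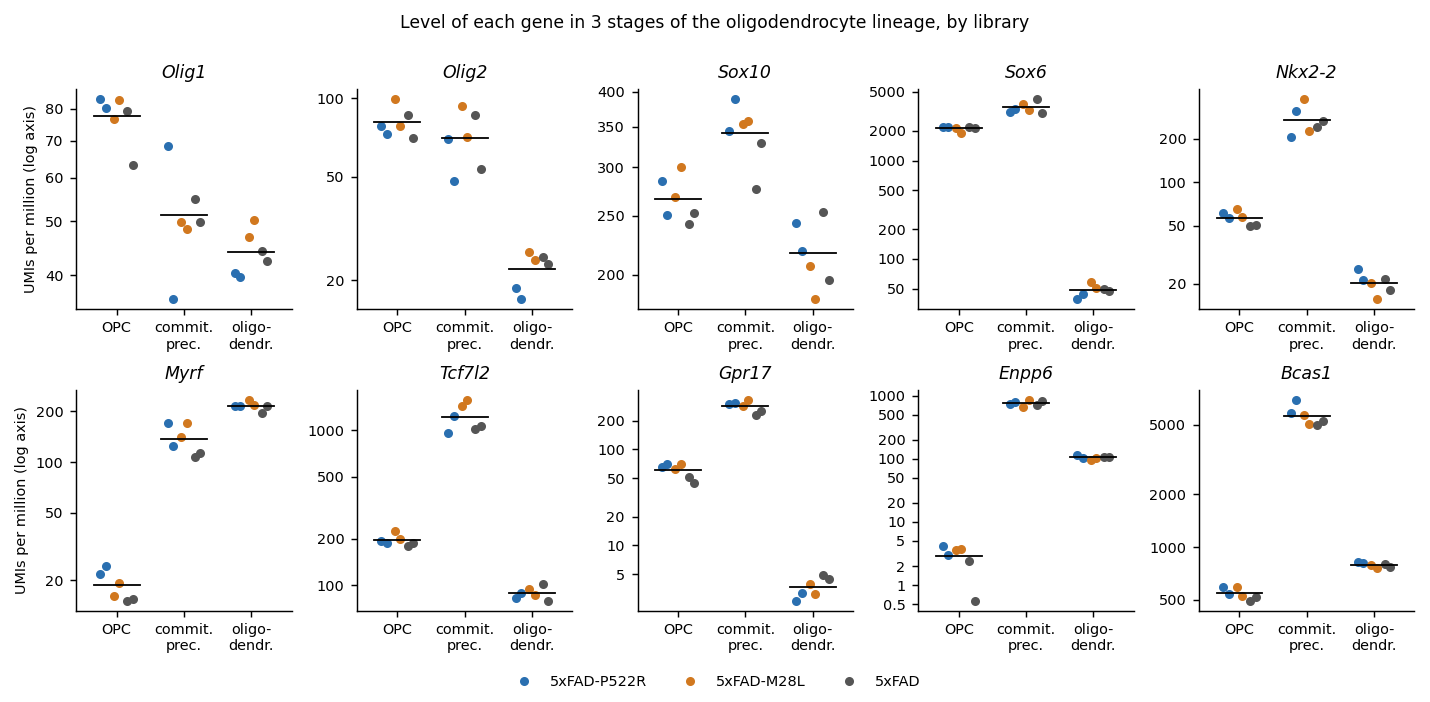
Level of each gene in OPC-like, committed precursor-like and oligodendrocyte-like nuclei, in CPM on a log axis whose range differs between panels. Points are the 6 libraries, coloured by group, and lines are means over libraries. Enpp6, for example, averaged 2.90, 762 and 105 CPM in the 3 stages.

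The basic helix-loop-helix factors Olig1 and Olig2, which sit next to each other on chromosome 16 (Olig2 at chr16:91225457-91228677 and Olig1 at chr16:91269772-91271933, both on the plus strand of GRCm38, with 41094 bases between them), did not share 1 profile. Olig1 had 63.3, 79.8 and 83.4 CPM in OPC-like nuclei (77.6 ± 7.44), 36.2, 49.9 and 68.3 in committed precursor-like nuclei (51.3 ± 10.4) and 39.7, 43.3 and 50.3 in oligodendrocyte-like nuclei (44.0 ± 4.08). Its neighbouring stages overlapped, and the mean in oligodendrocytes was 0.80 ± 0.18 log2 units lower than in OPCs, with CPM + 1 on the log scale for all such stage differences. Olig2 had 70.4, 78.1 and 99.7 CPM in OPC-like nuclei (80.9 ± 10.7), 48.3, 70.3 and 93.2 in committed precursor-like nuclei (70.2 ± 17.6) and 17.0, 23.6 and 25.7 in oligodendrocyte-like nuclei (22.2 ± 3.50). Olig2 thus overlapped between OPCs and committed precursors and was clearly lower after them, by 1.59 ± 0.26 log2 units, the range in oligodendrocytes lying below that of both earlier stages.

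Sox10, the SOX factor that all stages of the lineage need (chr15:79154908-79165240, minus strand), was the flattest. It had 242, 260 and 301 CPM in OPC-like nuclei (267 ± 22.5), 277, 349 and 389 in committed precursor-like nuclei (342 ± 37.7) and 182, 212 and 254 in oligodendrocyte-like nuclei (217 ± 27.4). OPC-like values overlapped with those of both other stages. Sox6 (chr7:115470872-116038796, minus strand, of which 2.61% is exon) was much lower after the committed stage. It had 1887, 2164 and 2208 CPM in OPC-like nuclei (2122 ± 119), 3035, 3341 and 4270 in committed precursor-like nuclei (3474 ± 466) and 39.4, 48.1 and 57.7 in oligodendrocyte-like nuclei (47.9 ± 6.26). No stage overlapped with another, and the drop from committed precursors to oligodendrocytes was 6.15 ± 0.18 log2 units. Its level in committed precursors was 0.70 ± 0.19 log2 units above that in OPCs. At 1500 UMIs per nucleus Sox6 was detected in 91.4% of committed precursor-like (84.6 to 97.2% over libraries) and 93.3% of OPC-like nuclei (90.0 to 94.5%). Unlike the level, the share of nuclei was thus not higher in committed precursors, and the reason was not tested.

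Nkx2-2, a homeodomain factor that promotes differentiation (chr2:147177546-147194243, minus strand), had 49.8, 57.1 and 65.6 CPM in OPC-like nuclei (56.9 ± 5.96), 204, 252 and 378 in committed precursor-like nuclei (270 ± 64.0) and 15.7, 20.7 and 25.3 in oligodendrocyte-like nuclei (20.3 ± 3.28). The stages did not overlap. Tcf7l2 (chr19:55741820-55933654, plus strand) had 179, 190 and 226 CPM in OPC-like nuclei (195 ± 16.2), 968, 1157 and 1563 in committed precursor-like nuclei (1217 ± 243) and 79.7, 88.5 and 102 in oligodendrocyte-like nuclei (89.3 ± 8.09). It was higher in committed precursors than in OPCs by 2.61 ± 0.22 log2 units and lower in oligodendrocytes than in OPCs by 1.12 ± 0.17. Myrf, the factor whose cleaved part binds myelin genes (chr19:10208272-10240748, minus strand), was the only gene to increase at both steps. It had 15.1, 17.7 and 24.2 CPM in OPC-like nuclei (18.6 ± 3.72), 106, 133 and 170 in committed precursor-like nuclei (137 ± 27.6) and 197, 214 and 232 in oligodendrocyte-like nuclei (215 ± 11.3). Its level in OPC-like nuclei was close to that in microglia-like nuclei, a cell type that should lack it (17.3 CPM), whereas the ranges of the 2 later stages lay far above.

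The 3 genes known as marks of the committed or early myelinating stage were all highest there. Gpr17 (chr18:31942997-31949636, minus strand) had 45.0, 64.3 and 70.7 CPM in OPC-like nuclei (60.9 ± 10.5), 228, 291 and 325 in committed precursor-like nuclei (283 ± 35.5) and 2.66, 3.61 and 4.86 in oligodendrocyte-like nuclei (3.73 ± 0.859). The oligodendrocyte value is at the level of microglia-like nuclei (3.96 CPM) and is read as background. Enpp6 (chr8:46986887-47096762, plus strand) had 0.57, 3.29 and 4.14 CPM in OPC-like nuclei (2.90 ± 1.28), 656, 775 and 843 in committed precursor-like nuclei (762 ± 71.0) and 95.5, 104 and 116 in oligodendrocyte-like nuclei (105 ± 6.72). In OPCs its mean was below the mean of 11.2 CPM in microglia-like nuclei. The OPC value is thus read as background too, and Enpp6 first appeared above it in committed precursors. This reference differed between libraries: the share of microglia-like nuclei with Enpp6 but no Gpr17 ran from 1.21% (5xFAD-M28L replicate 2) to 5.38% (5xFAD-P522R replicate 3). Bcas1 (chr2:170346991-170427845, minus strand) had 495, 533 and 593 CPM in OPC-like nuclei (544 ± 39.8), 5018, 5473 and 6902 in committed precursor-like nuclei (5628 ± 720) and 763, 796 and 824 in oligodendrocyte-like nuclei (794 ± 25.4). Bcas1 differed from Gpr17 and Enpp6 in being well above background in all 3 stages, with no overlap between them.

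For Gpr17, Enpp6 and Myrf, detection per nucleus gave the same order. With each nucleus thinned to 1500 UMIs, which left out 10 OPC-like, 1 committed precursor-like and 284 oligodendrocyte-like nuclei, Gpr17 was detected in 8.77% of OPC-like, 32.5% of committed precursor-like and 0.56% of oligodendrocyte-like nuclei, and in 0.56% of microglia-like nuclei. The same shares were 0.51%, 48.3%, 10.7% and 1.12% for Enpp6, and 2.19%, 14.7%, 28.1% and 2.02% for Myrf. Over libraries the microglia-like shares ran from 0.22 to 0.87% for Gpr17, 0.44 to 2.16% for Enpp6 and 1.13 to 4.66% for Myrf. Without thinning, Gpr17 was detected in 36.8%, 83.4%, 1.55% and 1.54% and Enpp6 in 1.69%, 70.8%, 21.5% and 2.66%, with median depths of 8143.5, 9110, 3967 and 3559 UMIs per nucleus.

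Gpr17 and Enpp6 were also counted together in single nuclei. Of the 333 committed precursor-like nuclei, 201 had a UMI of both genes (60.4%, exact binomial 95% interval 54.9 to 65.7), 74 had Gpr17 without Enpp6 (22.2%, 17.9 to 27.1), 37 had Enpp6 without Gpr17 (11.1%, 7.94 to 15.0) and 21 had neither (6.31%, 3.95 to 9.48). Gpr17 was found in 275 and Enpp6 in 238 of them, and the product of these shares is 59.0%, close to the share with both, so the joint count adds little to the level of each gene. In the other stages 35.0% of OPC-like nuclei had Gpr17 alone and 0.63% had both, while 21.1% of oligodendrocyte-like nuclei had Enpp6 alone and 0.33% had both. In microglia-like nuclei 1.49% had Gpr17 alone, 2.81% had Enpp6 alone and 3 of 8458 had both. These intervals, and all others on nuclei or UMIs, cover counting error only.

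The committed stage had an inner order. Its 333 nuclei were ranked by their UMIs of 12 myelin and oligodendrocyte marker genes over their UMIs of 10 OPC marker genes, none of them among the genes described here, and split into the first, middle and last 111 nuclei. This is a range cut from a score and not a set of cell types, and 35 and 28 nuclei lay within 0.2 score units (log2) of the 2 cuts. Mean depth increased along it, at 9013, 9826 and 12205 UMIs per nucleus, and its part in the levels was not tested beyond the scaling to CPM.

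Along this range Tcf7l2, Enpp6 and Myrf were higher at the end than at the beginning in 6 of 6 libraries. Tcf7l2 had 543 CPM in the first, 925 in the middle and 1920 in the last nuclei (exact Poisson 95% intervals 498 to 590, 869 to 984 and 1847 to 1995). Enpp6 had 312, 892 and 977 CPM (278 to 348, 837 to 950 and 925 to 1031), so most of its increase lay between the first and the middle nuclei. Myrf had 76.0, 141 and 185 CPM (59.9 to 95.1, 120 to 165 and 163 to 210). Gpr17, Nkx2-2 and Sox6 took the opposite course, with lower levels in the last than in the first nuclei in 6 of 6 libraries, and had most of that difference after the middle nuclei. Gpr17 had 372, 359 and 152 CPM (335 to 412, 325 to 397 and 132 to 174). Nkx2-2 had 338, 331 and 159 CPM (303 to 376, 298 to 367 and 138 to 181). Its course differed between libraries, with 197, 422 and 164 CPM in 5xFAD-M28L replicate 3. Sox6 had 4163, 3917 and 2587 CPM (4038 to 4292, 3800 to 4036 and 2502 to 2674). By summed level, Enpp6 was thus already near its last level in the middle nuclei, where Gpr17 and Nkx2-2 were still at their first level. Tcf7l2 was highest where Gpr17, Nkx2-2 and Sox6 were lowest.

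Bcas1 peaked in the middle nuclei, with 4912, 6665 and 5112 CPM (4776 to 5051, 6513 to 6820 and 4992 to 5234), and the last nuclei were below the first in 2 of 6 libraries. Sox10 was level, with 319, 351 and 343 CPM (285 to 356, 317 to 388 and 313 to 376). Olig1 had 64.0, 42.2 and 53.9 CPM and Olig2 had 83.0, 77.0 and 59.8 CPM, on 46 to 84 UMIs per value, and their intervals overlapped between the first and last nuclei although both were lower at the end in 5 of 6 libraries.

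**Figure D2:**
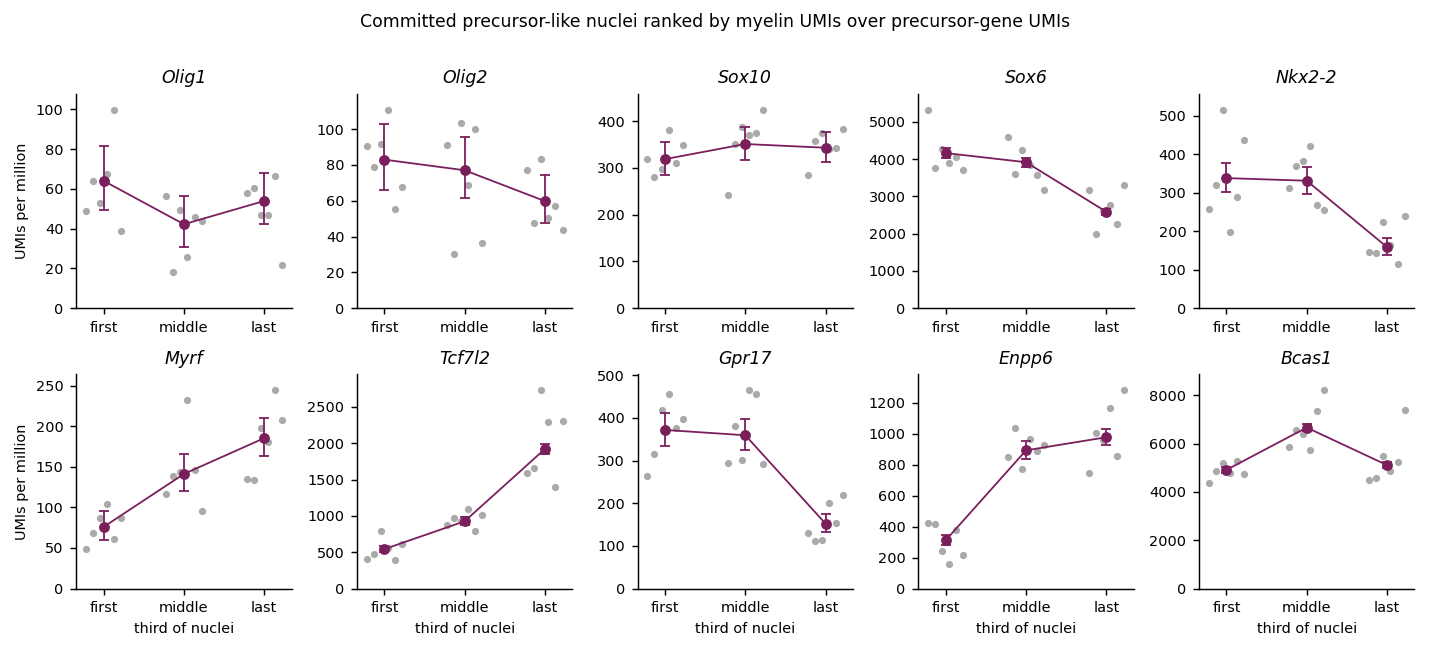
Level of each gene, in CPM, in the first, middle and last 111 committed precursor-like nuclei ranked by myelin over precursor UMIs. Large points and bars are the summed level with its exact Poisson 95% interval, and grey points are the 6 libraries. Tcf7l2 runs over 543, 925 and 1920 CPM while Gpr17 runs over 372, 359 and 152 CPM.

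Within oligodendrocyte-like nuclei, which fell into 5 clusters, Enpp6 was the gene that differed most. It had 335 ± 16.4 CPM (310 to 352 over 6 libraries) in a cluster of 5765 nuclei led by genes that include Anln and Piezo2, and 10.2 ± 2.31 CPM (7.97 to 13.1) in the largest cluster, of 11962 nuclei, led by genes that include Kit and Opalin. The other clusters had 58.5 ± 6.89, 73.5 ± 7.73 and 71.2 ± 25.2 CPM. The Enpp6 mean in the Kit and Opalin cluster was near that of microglia-like nuclei, whose values differed between libraries. Bcas1 ran from 683 to 856 CPM, Myrf from 196 to 236 and Sox10 from 193 to 232 over the same 5 clusters, and the first 2 were lowest in the cluster where Enpp6 was highest. In the 264 nuclei of an interferon-gene cluster (with Nlrc5 and Usp18 among its leading genes) Tcf7l2 averaged 59.2 CPM, against 77.1 to 96.1 CPM in the other 4 clusters. Gpr17, at background in oligodendrocyte-like nuclei as a whole, averaged 0.65 CPM there. With so few nuclei no difference is read from that value.

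Sox6, Tcf7l2 and Sox10 were also well detected outside the lineage. Sox6 had 954 ± 37.5 CPM in astrocyte-like nuclei and was detected in 97.5% of them, and 228 ± 47.7 CPM in inhibitory neuron-like nuclei, where it is known from interneurons. Tcf7l2 had 530 ± 31.4 CPM in astrocyte-like, 431 ± 44.5 in fibroblast-like, 314 ± 107 in border macrophage-like and 244 ± 32.5 in microglia-like nuclei (n = 6 each), all at or above its 195 CPM in OPC-like nuclei, and 17.6 and 5.88 CPM in inhibitory and excitatory neuron-like nuclei. In the order of Tcf7l2 levels the astrocyte-like value overlapped with no neighbour, whereas fibroblast-like, border macrophage-like, microglia-like and OPC-like values overlapped in turn. Sox10 had 276 ± 101 CPM in 93 nuclei with olfactory ensheathing markers (n = 5 libraries), a glial type in which Sox10 is known, and at most 44.9 CPM in the other types outside the lineage. In oligodendrocyte-like nuclei Tcf7l2 was lower, at 89.3 CPM, than the mean of each class outside the lineage in the plot by class other than the neurons.

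**Figure D3:**
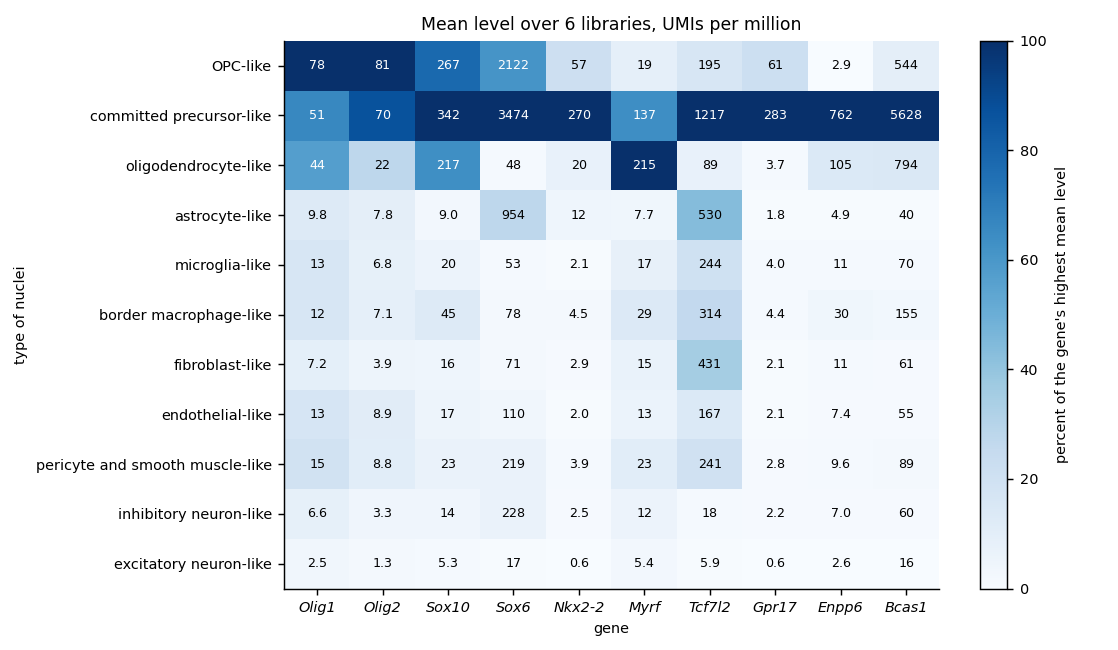
Mean level over 6 libraries, in CPM, of each gene (columns) in 11 classes of nuclei (rows). Colour is the percent of the gene's own highest mean, so that columns are read one at a time; Tcf7l2 (1217 CPM in committed precursor-like and 530 CPM in astrocyte-like nuclei) and Sox6 are the columns with colour below the lineage rows.

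Low levels of Bcas1 in microglia-like nuclei differed between libraries. Bcas1 in microglia-like nuclei had 76.1 and 176 CPM in 5xFAD-P522R (replicates 2 and 3), 35.8 and 40.8 in 5xFAD-M28L and 50.1 and 42.6 in 5xFAD. The summed level of the 12 oligodendrocyte markers in the same nuclei was 1593 and 3357 CPM in 5xFAD-P522R, 834 and 994 in 5xFAD-M28L and 1097 and 1193 in 5xFAD. Both were higher in the 5xFAD-P522R libraries than in the other 4 and highest in replicate 3, and the part of oligodendrocyte RNA in the Bcas1 value was not tested.

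By Pearson's r of log2(CPM + 1) over 11 classes by 6 libraries (66 points that share library and depth, so r is a description only), the gene nearest to Myrf was Fa2h (0.96), a fatty acid hydroxylase of myelin lipids, followed by Tspan2 (0.95). The nearest to Gpr17 was Neu4 (0.95), a sialidase of the committed stage, then E2f8 (0.90) and Matn1 (0.90). Bcas1 was nearest to Gjc3 (0.95), a connexin, Plxnb3 (0.93) and Sirt2 (0.93), and Sox10 to Gjc3 (0.93), Plxnb3 (0.92) and Gm10863 (0.92). For Enpp6 they were Slc44a1 (0.88), a choline transporter, Efcab14 (0.88) and Mbp (0.87), and for Tcf7l2 they were Elf1 (0.90), Itpr2 (0.89) and Cpq (0.89). Nkx2-2 was nearest to Bcas1os2 (0.93), Col9a3 (0.88) and Abtb2 (0.87), and Sox6 to Ptprz1 (0.91), Kank1 (0.91) and Gm45025 (0.90), an antisense gene that overlaps Sox6. Olig2 was nearest to Zfp488 (0.84), a zinc finger factor of the lineage, 6030407O03Rik (0.83) and Rbpjl (0.83), and Olig1 to Snx1 (0.86), Gjc3 (0.84) and Matn4 (0.83). Bcas1os2 overlaps Bcas1 on the opposite strand.

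Groups were compared within each stage with edgeR's quasi-likelihood test on UMIs summed per library, with p-values adjusted by Benjamini-Hochberg over all genes tested. This asks whether either PLCG2 variant goes with a change in the lineage genes of plaque-bearing cortex. All 10 genes passed the filter on low counts in each stage, and none passed an adjusted p of 0.05 in any of the 9 comparisons (90 tests). The background was as low: of 14666 genes in OPC-like and 7632 in committed precursor-like nuclei 0% were called in each of the 3 contrasts, and of 15853 genes in oligodendrocyte-like nuclei 0% were called for 5xFAD-M28L against 5xFAD, 0.0126% (2 genes) for 5xFAD-P522R against 5xFAD and 0.00631% (1 gene) for 5xFAD-P522R against 5xFAD-M28L. At an unadjusted p under 0.05 there were 18 of the 90 tests of the lineage genes with edgeR and 14 with DESeq2, which gave an adjusted p for 72 of the 90 and called none. Over all genes the share at an unadjusted p under 0.05 with edgeR was 9.19% of the tests in the 9 comparisons together, and 11.6% to 13.04% in OPC-like and oligodendrocyte-like nuclei for the contrasts against 5xFAD. With DESeq2 the genes at that threshold were 784, 700 and 315 of 14666 in OPC-like nuclei for 5xFAD-M28L against 5xFAD, 5xFAD-P522R against 5xFAD and 5xFAD-P522R against 5xFAD-M28L. In the same order they were 84, 69 and 81 of 7632 in committed precursor-like nuclei and 1417, 1243 and 685 of 15853 in oligodendrocyte-like nuclei. The libraries with the same replicate number deviated together in OPC-like and oligodendrocyte-like nuclei, so edgeR was also run with the replicate number as a block. In OPC-like nuclei it then called 1 of the 10 genes (Gpr17) beside 836 of 14666 genes for 5xFAD-M28L against 5xFAD. For 5xFAD-P522R against 5xFAD it called 2 (Gpr17 and Myrf) beside 804, and for 5xFAD-P522R against 5xFAD-M28L none beside 49. In oligodendrocyte-like nuclei, of 15853 genes, it called none of the 10 beside 1227 for 5xFAD-M28L against 5xFAD. There it called 1 (Olig2) beside 1124 for 5xFAD-P522R against 5xFAD, and 2 (Olig2 and Sox6) beside 257 for 5xFAD-P522R against 5xFAD-M28L. Without 5xFAD replicate 2, edgeR also called 0 of the 10 genes in each of the 9 comparisons. The contrasts against 5xFAD share its libraries and are not independent. Where groups are said below not to overlap, this describes 2 libraries per group and is no test. The share of all genes whose groups lie apart in the same way is not given.

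In OPC-like nuclei, the genes that came nearest to a call were Gpr17 and Myrf. Gpr17 had 64.1 and 70.2 normalized CPM in 5xFAD-P522R (replicates 2 and 3), 63.5 and 70.7 in 5xFAD-M28L and 51.6 and 45.9 in 5xFAD. Both variant groups lay above 5xFAD without overlap, with log2 fold changes of 0.46 (SE 0.10) for 5xFAD-P522R and 0.45 (SE 0.10) for 5xFAD-M28L, and edgeR adjusted p-values of 0.38 and 0.33 (0.0063 and 0.0072 with the replicate block). Myrf in this stage was close to the level of microglia-like nuclei. After thinning to equal depth, Myrf was detected in 2.19% of OPC-like and 2.02% of microglia-like nuclei. It had 20.9 and 24.0 normalized CPM in 5xFAD-P522R, 16.4 and 19.5 in 5xFAD-M28L and 15.2 and 15.8 in 5xFAD, again without overlap. Its log2 fold change was 0.53 (SE 0.15, edgeR adjusted p 0.38, and 0.025 with the replicate block) for 5xFAD-P522R and 0.20 (SE 0.15, edgeR adjusted p 0.60) for 5xFAD-M28L. Enpp6, at background in this stage, had log2 fold changes of 1.13 (SE 0.51) and 1.17 (SE 0.51) that rest on 5 UMIs in 5xFAD replicate 3. Over the 10 genes the median log2 fold change was 0.13 for 5xFAD-P522R (8 of 10 positive) and 0.20 for 5xFAD-M28L (9 of 10 positive), against -0.01 over all genes in both contrasts.

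Mature myelin transcripts moved in the same direction in OPC-like nuclei. The 12 mature myelin genes, such as Mbp and Mog, which OPCs should lack, had positive values in 11 of 12 for 5xFAD-P522R against 5xFAD (median log2 fold change 0.64), in 9 of 12 for 5xFAD-M28L against 5xFAD (0.31) and in 12 of 12 for 5xFAD-P522R against 5xFAD-M28L (0.27), and edgeR called none of them. Their summed level was 778 and 765 CPM in 5xFAD-P522R, 521 and 736 in 5xFAD-M28L and 540 and 463 in 5xFAD, all 12 being detected in each library. Oligodendrocyte-like nuclei had 14578 and 14589, 13961 and 14233, and 13644 and 14604 CPM of the same genes. Their part in the Myrf values of OPC-like nuclei was not tested. Gpr17 is at background in oligodendrocyte-like nuclei (2.66 to 4.86 CPM) and highest in committed precursor-like nuclei. The part of RNA from other nuclei, or of nuclei nearer to the committed stage, in its OPC-like values was not tested.

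In committed precursor-like nuclei Tcf7l2 came nearest to a call. It had 989 and 1257 normalized CPM in 5xFAD-P522R, 1504 and 1690 in 5xFAD-M28L and 1056 and 1105 in 5xFAD. Both 5xFAD-M28L libraries lay above the other 4, with a log2 fold change of 0.56 (SE 0.19) over 5xFAD, while 5xFAD-P522R overlapped with 5xFAD and was lower than 5xFAD-M28L by 0.51 (SE 0.19) on the log2 scale. The edgeR adjusted p-values were 0.87 for 5xFAD-M28L against 5xFAD and 0.997 for 5xFAD-P522R against 5xFAD-M28L. Myrf had 173 and 125 normalized CPM in 5xFAD-P522R, 148 and 183 in 5xFAD-M28L and 111 and 117 in 5xFAD, with log2 fold changes over 5xFAD of 0.42 (SE 0.24, edgeR adjusted p 0.96) and 0.54 (SE 0.24, edgeR adjusted p 0.87). Enpp6 differed little, with log2 fold changes of -0.0037 (SE 0.20) for 5xFAD-P522R and 0.02 (SE 0.20) for 5xFAD-M28L. The place of the nuclei along the stage also differed between libraries: the 12 oligodendrocyte markers summed to 6242 and 3427 CPM in 5xFAD-P522R, 4836 and 7159 in 5xFAD-M28L and 4671 and 6330 in 5xFAD, and their part in the Tcf7l2 values was not tested. The SE of about 0.19 or more for every gene but Bcas1 (0.16) in this stage goes with 36 to 66 nuclei per library.

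**Figure D4:**
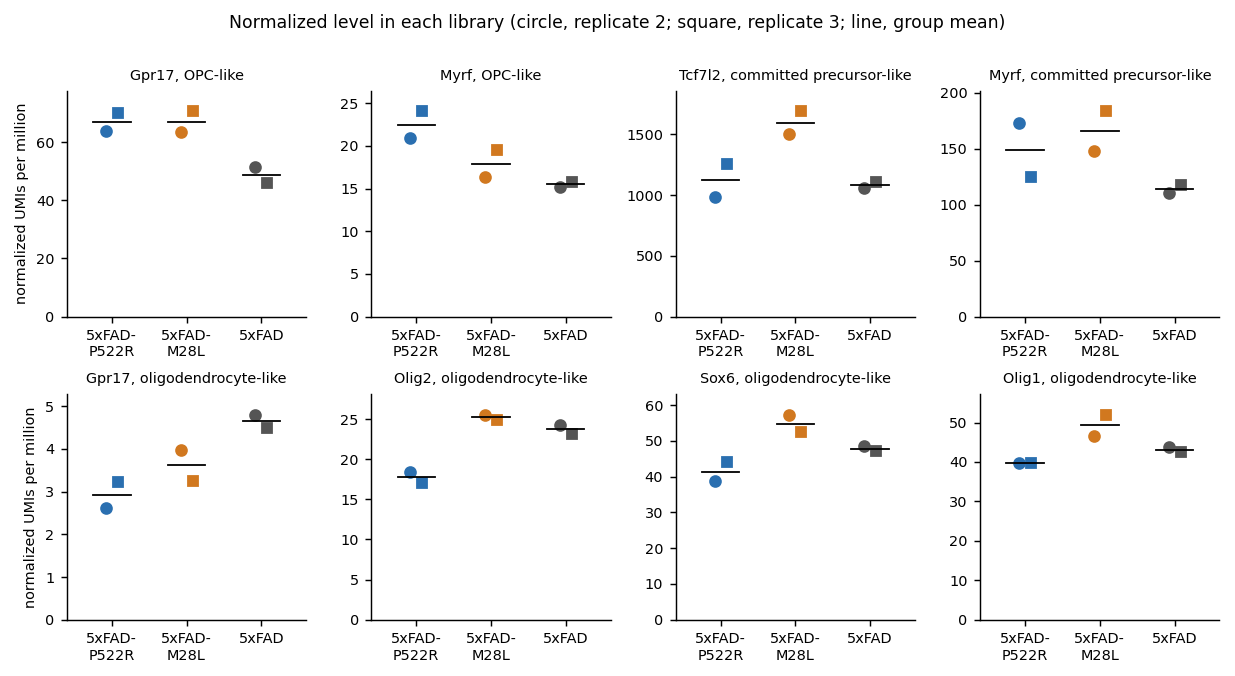
Normalized CPM in each library, by group, for 8 of the pairs of gene and stage whose values are given in the text. Nkx2-2, Sox10 and Tcf7l2 in oligodendrocyte-like nuclei are not drawn. Of these, Nkx2-2 had positive log2 fold changes for 5xFAD-P522R against both other groups. Circles are replicate 2, squares are replicate 3 and lines are group means. Gpr17 in OPC-like nuclei is at 64.1 and 70.2 in 5xFAD-P522R, 63.5 and 70.7 in 5xFAD-M28L and 51.6 and 45.9 in 5xFAD.

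In oligodendrocyte-like nuclei genes of the list differed in both directions between 5xFAD-P522R and the other groups. Olig2 had 18.5 and 17.1 normalized CPM in 5xFAD-P522R, 25.6 and 24.9 in 5xFAD-M28L and 24.3 and 23.1 in 5xFAD. The 5xFAD-P522R libraries lay below the other 4 without overlap, by 0.42 (SE 0.091) on the log2 scale against 5xFAD and by 0.51 (SE 0.091) against 5xFAD-M28L, with edgeR adjusted p-values of 0.28 and 0.36 (0.018 and 0.017 with the replicate block). Sox6 had 38.7 and 44.0 normalized CPM in 5xFAD-P522R, 57.4 and 52.4 in 5xFAD-M28L and 48.5 and 47.2 in 5xFAD, and its log2 fold change between the variant groups was -0.41 (SE 0.090, edgeR adjusted p 0.49, and 0.032 with the replicate block). Olig1 had 39.7 and 39.8 normalized CPM in 5xFAD-P522R, 46.6 and 52.0 in 5xFAD-M28L and 43.7 and 42.5 in 5xFAD, and its log2 fold change between the variant groups was -0.31 (SE 0.080, edgeR adjusted p 0.54). In all of Olig2, Sox6 and Olig1 the 5xFAD-P522R values were lowest and the 5xFAD-M28L values highest. Nkx2-2 went the other way, with 24.9 and 21.2 normalized CPM in 5xFAD-P522R, 20.04 and 16.2 in 5xFAD-M28L and 21.2 and 18.1 in 5xFAD, and log2 fold changes of 0.35 (SE 0.14, edgeR adjusted p 0.71) over 5xFAD-M28L and 0.23 (SE 0.14) over 5xFAD. Sox10 had 239 and 219 normalized CPM in 5xFAD-P522R, 205 and 189 in 5xFAD-M28L and 251 and 197 in 5xFAD, so that the variant groups did not overlap but 5xFAD overlapped with both. Gpr17, at background, had the lowest log2 fold change of 5xFAD-P522R over 5xFAD, -0.68 (SE 0.21, edgeR adjusted p 0.34). Myrf, the factor highest in this stage, differed by 0.05 (SE 0.071) in 5xFAD-P522R and 0.15 (SE 0.071) in 5xFAD-M28L against 5xFAD, and Bcas1 by 0.06 (SE 0.056) and 0.01 (SE 0.056).

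Transcripts of other cells moved alongside in these nuclei. The 12 precursor genes, such as Pdgfra, Cspg4 and Vcan, had positive values in 2 of 12 for 5xFAD-P522R against 5xFAD (median log2 fold change -0.28) and in 0 of 12 for 5xFAD-P522R against 5xFAD-M28L (-0.23). The 10 astrocyte markers summed to 371 and 359 CPM in 5xFAD-P522R, 569 and 496 in 5xFAD-M28L and 540 and 547 in 5xFAD, each of the 10 being detected in each library. OPC-like nuclei made up 13.7% and 11.7% of the lineage in 5xFAD-P522R, 17.6% and 13.2% in 5xFAD-M28L and 20.2% and 17.8% in 5xFAD. Sox6 is abundant in both OPC-like and astrocyte-like nuclei. Olig1, Olig2 and, at 60.9 CPM, Gpr17 are higher in OPC-like than in oligodendrocyte-like nuclei, and so are Nkx2-2 and Tcf7l2. Of these, Nkx2-2 had positive log2 fold changes for 5xFAD-P522R against both other groups. Tcf7l2 had 81.4 and 90.06 normalized CPM in 5xFAD-P522R, 93.5 and 90.15 in 5xFAD-M28L and 101 and 79.9 in 5xFAD. The part of RNA from other cells in these values was not tested. The mix of sexes differed too: of the oligodendrocyte-like nuclei with UMIs of Xist or of Y-linked genes but not both, those with Xist were 59.2% and 58.8% in 5xFAD-P522R, 66.2% and 64.7% in 5xFAD-M28L and 57.8% and 51.7% in 5xFAD, and its part in the values was not tested.

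The other lists of the pathway held no call in any stage or contrast. Of 29 further transcription factors of the lineage, 28 were tested in OPC-like and oligodendrocyte-like nuclei and 20 in committed precursor-like nuclei, with medians between -0.10 and 0.08. Of 20 Wnt and BMP genes around Tcf7l2, 19, 16 and 20 were tested in OPC-like, committed precursor-like and oligodendrocyte-like nuclei, with medians between -0.08 and 0.10, so that the higher Tcf7l2 values of 5xFAD-M28L committed precursors stood beside a list median of -0.08 (7 of 16 positive). Of 13 genes of newly formed oligodendrocytes in the files, 12 were tested in each stage; in committed precursor-like nuclei 11 of 12 were positive for 5xFAD-M28L against 5xFAD (median 0.28) and 3 of 12 for 5xFAD-P522R against 5xFAD-M28L (-0.31), with all-gene medians of 0.01 and 0.00.

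**Figure D5:**
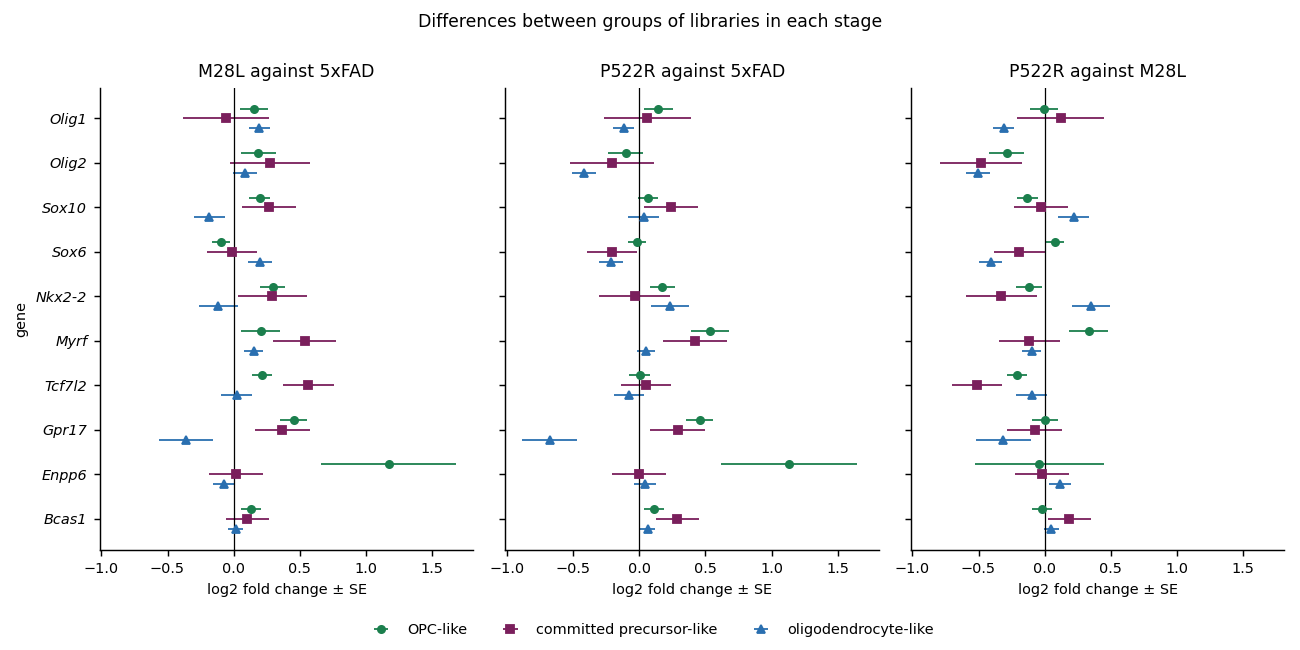
Log2 fold change with its SE of each gene in OPC-like, committed precursor-like and oligodendrocyte-like nuclei, for 5xFAD-M28L against 5xFAD, 5xFAD-P522R against 5xFAD and 5xFAD-P522R against 5xFAD-M28L. No value passed an adjusted p of 0.05; Tcf7l2 in committed precursor-like nuclei of 5xFAD-M28L against 5xFAD lies at 0.56 and Olig2 in oligodendrocyte-like nuclei of 5xFAD-P522R against 5xFAD lies at -0.42.

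Committed precursor-like nuclei made up 0.676% and 0.374% of the nuclei in 5xFAD-P522R, 0.571% and 0.628% in 5xFAD-M28L and 0.5001% and 0.605% in 5xFAD. The groups overlapped. The log2 fold changes of this share were -0.07 (SE 0.40) for 5xFAD-P522R and 0.12 (SE 0.40) for 5xFAD-M28L against 5xFAD and -0.19 (SE 0.40) between the variant groups, with edgeR adjusted p-values of 0.98, 0.98 and 0.93. The NeuN sort and the pooling of nuclei also act on these shares, and their part was not tested.

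Whether a difference between groups was larger in 1 end of the lineage than in the other was tested in 1 fit over both stages. For 5xFAD-P522R against 5xFAD, Gpr17 was called, with a log2 fold change that was 1.19 lower (SE 0.18) in oligodendrocyte-like than in OPC-like nuclei (edgeR adjusted p 0.0028), where 0.616% of 16734 genes were called in either direction. For 5xFAD-P522R against 5xFAD-M28L, Sox6 was called, 0.49 lower (SE 0.099) in oligodendrocyte-like than in OPC-like nuclei (edgeR adjusted p 0.048), where 0.209% of genes were called. For 5xFAD-M28L against 5xFAD 0.120% of genes were called and none of the 10, with 5 of them at an unadjusted p under 0.05 (8.25% of all genes) and Gpr17 nearest (-0.86, SE 0.18, edgeR adjusted p 0.080). The Gpr17 call was lost without 5xFAD-P522R replicate 2 (-1.02, edgeR adjusted p 0.13), and its oligodendrocyte values of 2.62 and 3.22 normalized CPM in 5xFAD-P522R and 4.81 and 4.50 in 5xFAD are at the level of microglia-like nuclei. The Sox6 call was lost without any 1 of the 4 variant libraries, with edgeR adjusted p-values of 0.57 and 0.29 without 5xFAD-P522R replicates 2 and 3 and 0.095 and 0.21 without 5xFAD-M28L replicates 2 and 3.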

How the data were processed

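Nuclei of 6 libraries were measured with 10x 3′ single-nucleus RNA-seq. For each library the authors deposited raw counts of UMIs by gene and barcode. Cell Ranger 6.1.2 and the mm10 genome are named in the submitters' processing notes, and per the file headers 5 libraries were made with Cell Ranger 6.1.2 and 5xFAD-P522R replicate 3 with 5.0.1. Whether intron reads were counted is not given in the sources used here. The smallest barcode held 500 to 502 UMIs, so the deposited matrices had been filtered, and 53326947 to 72288942 UMIs per library set the counting precision.

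Nuclei had to have at least 500 UMIs, at least 300 genes and no more than 5% of UMIs from mitochondrial genes. Doublets were called with Scrublet at 1 threshold for all libraries (3.67% to 4.68% of nuclei) and removed. Nuclei were clustered with scanpy 1.11.5 and leidenalg 0.10.2 (2000 variable genes without the 10 genes, 30 components, 20 neighbours, resolution 1), and clusters were named from marker lists. UMIs were summed per library and class and tested with edgeR 4.0.16 in R 4.3.3 (quasi-likelihood test, TMM scaling, all 6 libraries in 1 fit with group as the only term, filterByExpr with a minimum count of 10, Benjamini-Hochberg threshold 0.05). The test was checked on simulated data. The labels do not say what libraries with the same replicate number share, but their deviations from the group means correlated at 0.28 to 0.42 in OPC-like and 0.40 to 0.51 in oligodendrocyte-like nuclei (-0.06 to 0.08 in committed precursor-like nuclei), so the fit with the replicate number as a block is given beside results whose call it changes. Shares have exact binomial and UMI levels exact Poisson 95% intervals, which cover counting error only.

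The genes described are the 10 lineage genes, the 3 genes nearest to each by correlation, and up to 4 called genes per list. A gene that this rule names is not reported here. The genes and lists were chosen with earlier results of these data known. Alternatives were a minimum count of 50 or no filter, RLE size factors, DESeq2 1.42.0, only the groups compared, a replicate block, at least 1000 UMIs per nucleus, doublets kept, the 10 genes kept for clustering, resolution 2, another denominator for shares, thinning to 1500 UMIs, and each library left out. Promoter windows came from RefSeq (GRCm38.p6) and gene positions from GENCODE vM21 (GRCm38).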

Additional observations from a re-analysis of the deposited data

Results flagged for a closer look

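The difference between 5xFAD-P522R and 5xFAD in Gpr17 was not the same at both ends of the lineage. The log2 fold change in oligodendrocyte-like minus that in OPC-like nuclei was -1.19, which passed the test of the difference itself (edgeR's quasi-likelihood test with Benjamini-Hochberg adjustment, adjusted p 0.0028). In oligodendrocyte-like nuclei Gpr17 was at the level of microglia-like nuclei, with 3.73 against 3.96 CPM. With 5xFAD-P522R replicate 2 left out, the adjusted p was 0.13. In the same nuclei 2 of 12 precursor genes had positive values for 5xFAD-P522R against 5xFAD (median log2 fold change -0.28), OPC-like nuclei made up 13.7% and 11.7% of the lineage in 5xFAD-P522R and 20.2% and 17.8% in 5xFAD, and the part of precursor RNA in the Gpr17 values was not tested.

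The difference between 5xFAD-P522R and 5xFAD-M28L in Sox6 also differed between the ends of the lineage, by -0.49 (same test, adjusted p 0.048). Sox6 was not called at a minimum count of 50, nor without any single variant library. With each library left out in turn the value ran from -0.56 to -0.40. Summed astrocyte markers in oligodendrocyte-like nuclei were 371 and 359 CPM in 5xFAD-P522R and 569 and 496 CPM in 5xFAD-M28L, Sox6 had 954 CPM in astrocyte-like nuclei, and the part of such RNA in the result was not tested.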

How the results depend on the processing

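Within stages, 0 of the 10 genes were called under DESeq2, RLE size factors, a minimum count of 50, the compared groups alone, 1000 UMIs per nucleus, doublets kept, the 10 genes kept for clustering, resolution 2, or any library left out. With no filter on low counts, 1 gene was called in OPC-like nuclei for 5xFAD-M28L against 5xFAD (Gpr17, edgeR adjusted p 0.0016), 2 for 5xFAD-P522R against 5xFAD (Gpr17 and Myrf), and 1 in oligodendrocyte-like nuclei for 5xFAD-P522R against 5xFAD-M28L (Olig2). With the replicate block the counts were 1, 2 and 2 (Olig2 and Sox6), and 1 in oligodendrocyte-like nuclei for 5xFAD-P522R against 5xFAD (Olig2, edgeR adjusted p 0.018). The replicate block changed no other call of the 10 genes within stages, and the cause was not tested. Over all genes, for 5xFAD-M28L and 5xFAD-P522R against 5xFAD and for 5xFAD-P522R against 5xFAD-M28L, the calls were 836, 804 and 49 with the block, 680, 706 and 113 with no filter and 59, 30 and 7 with DESeq2 in OPC-like nuclei. In oligodendrocyte-like nuclei they were 1227, 1124 and 257, then 476, 533 and 151, then 124, 90 and 56, and in committed precursor-like nuclei 21, 16 and 35 with no filter. With the block 14666 genes were tested in OPC-like and 15853 in oligodendrocyte-like nuclei. With no filter these were 23520 and 24328, and 17806 in committed precursor-like nuclei. For the same 3 contrasts DESeq2 gave no adjusted p for 11658, 13364 and 13932 of 14666 genes in OPC-like nuclei. In oligodendrocyte-like nuclei it gave none for 8606, 1537 and 6147 of 15853 genes.

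For the difference between stages, a minimum count of 50 left 0 of the 10 genes called for 5xFAD-P522R against 5xFAD-M28L (Sox6, edgeR adjusted p 0.065), beside 12 of all 13081 genes. Which of the 10 genes were called changed with the library left out. Such fits leave 1 library in a group, so the ranges of their values are given. For 5xFAD-M28L against 5xFAD, Sox10 ran from -0.56 to -0.18 and Gpr17 from -1.02 to -0.59. For 5xFAD-P522R against 5xFAD, Enpp6 ran from -2.58 to -0.48 and Gpr17 from -1.27 to -1.02. For 5xFAD-P522R against 5xFAD-M28L, Sox10 ran from 0.22 to 0.49 and Sox6 from -0.56 to -0.40. Tcf7l2 for 5xFAD-M28L against 5xFAD, never called, ran from -0.37 to 0.0024 (without 5xFAD replicate 2), against -0.24. Between stages, Sox6 in committed precursor-like over OPC-like nuclei was -0.029 by share of nuclei at 1500 UMIs, against 0.70 by level. The reason was not tested. Committed precursor-like nuclei numbered 36 to 66 per library, and the part of that number in the count of calls was not tested.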

Other observations

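Several of the 10 genes share their locus with another gene. Lims2, which overlaps Gpr17 on the opposite strand, had 38.5 ± 5.47 CPM in OPC-like, 153 ± 33.9 in committed precursor-like and 31.3 ± 1.68 in oligodendrocyte-like nuclei (SD, n = 6 libraries). Nkx2-2os, antisense to Nkx2-2, had 100 ± 15.8, 136 ± 35.5 and 116 ± 9.95 CPM, so unlike Nkx2-2 it was not lower in oligodendrocyte-like nuclei than in OPC-like nuclei by mean level. Bcas1os2, opposite Bcas1, had 49.0 ± 27.7, 572 ± 343 and 60.8 ± 38.7 CPM. Its highest oligodendrocyte value was in 5xFAD replicate 2, with 134.9 CPM against 28.3 to 61.7 CPM in the other 5 libraries.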
